A study of Mus musculus with 6 samples.

Results

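The cytosolic ribosomal protein genes encode the proteins that are assembled with ribosomal RNA into the large and small subunits of the ribosome that translates nuclear messenger RNA. Members were chosen by symbol alone, as Rpl or Rps followed by a number with an optional letter (a, x, y or l) and digit, together with Rplp0, Rplp1, Rplp2 and Rpsa. Of the 21899 genes listed, 83 met this rule, of which 46 encode large-subunit proteins, 31 encode small-subunit proteins and 6 are paralogs of another member (Rpl3l, Rpl7l1, Rpl10l, Rpl22l1, Rpl39l and Rps27l). The rule itself uses no measured value.

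Each ribosome holds a single copy of almost every ribosomal protein, so cells make these proteins in matched amounts, and unassembled ones are degraded. In most cells their mRNAs are among the most abundant and begin with a 5′ terminal oligopyrimidine (TOP) tract, a C followed by a run of C and T bases, through which mTORC1 signalling controls their translation. Myc and RNA polymerase I drive ribosome production in growing tumor cells, and free Rpl5 and Rpl11 bind Mdm2 and so stabilize p53 when ribosome assembly fails.

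Tumors were raised in male C57BL/6 mice of 18 to 20 g from LLC-luc cells, a luciferase-carrying line of Lewis lung carcinoma, placed under the skin near the armpit in an inoculum of 100 μL; the age of the mice is not given. The Laser group was irradiated and, by the study's methods, given saline in place of a photosensitizer, while the PC-La group received phycocyanin (PC), a light-absorbing protein of Spirulina, and the SePC-La group received its selenium-enriched form (SePC) before irradiation. By the labels, agents were injected every 5 days and a 620 nm laser was applied for 10 min, 4 h after injection; the study's methods give a longer wavelength and a shorter interval. All 3 groups carry the tumor and the irradiation, each has 2 samples, and nothing in the labels says that these are separate animals, so p-values measure the spread between these samples only.

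The table names no unit, and its values were read as FPKM because, multiplied by exon lengths, they gave whole reads. FPKM is the number of fragments on a gene scaled by the length of its exons and by the counted fragments of its sample, which allows levels of different genes to be compared per length. The values corresponded to totals of 14447792 to 17649490 reads per sample, and 6.48% to 9.28% of these reads lay on the 83 members. The labels call the tissue lung cancer, and the keratins Krt8 and Krt18, carried by simple epithelia, stood at 78.1 to 114 and 110.01 to 166 FPKM, whereas the 6 lung epithelium markers together never passed 0.526 FPKM and Epcam never passed 0.129 FPKM. The samples also differed in other cell types. Fibroblast markers summed to 526 FPKM in Laser 1 but 68.9 FPKM in Laser 2, reached 819 and 693 after PC-La, and came to 44.5 in SePC-La 1 and 235 in SePC-La 2. Skeletal muscle markers summed to 124 FPKM in Laser 2, to 19.0 FPKM in Laser 1 and to at most 5.90 FPKM in the PC-La and SePC-La samples. The Laser samples thus stood apart from each other. For comparisons with Laser, the medians or the counts past the test, and the genes that passed, are given with and without each.

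To show examples of the members' start sites, promoter windows were taken from RefSeq (build GRCm38.p6), which had an entry for 63 of the 83 members. Each window below runs 5′ to 3′ on the transcribed strand from 50 bases before to 15 bases from the annotated start, with the pyrimidine run of a TOP-like start in capitals. Rps18, Rplp2, Rpl14 and Rpl38 were chosen because SePC-La differed from PC-La, Rps6 for its place downstream of mTORC1, Rps15a for its small difference, and Rps27 and Rps27l as a pair of paralogs. Every window printed has a TOP-like start, which only 29 of the 63 members have, so the examples do not stand for all members. The windows lie at chr17:33955651-33955715 on the minus strand, chr7:141447601-141447665 on the plus strand, chr9:120571467-120571531 on the plus strand, chr11:114668530-114668594 on the plus strand, chr4:86857353-86857417 on the minus strand, chr7:118116133-118116197 on the minus strand, chr3:90213634-90213698 on the minus strand and chr9:66946036-66946100 on the plus strand.
Rps18: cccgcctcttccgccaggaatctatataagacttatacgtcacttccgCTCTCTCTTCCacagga
Rplp2: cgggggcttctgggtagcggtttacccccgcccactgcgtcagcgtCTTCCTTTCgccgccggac
Rpl14: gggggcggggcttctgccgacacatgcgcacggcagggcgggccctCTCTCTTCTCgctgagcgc
Rpl38: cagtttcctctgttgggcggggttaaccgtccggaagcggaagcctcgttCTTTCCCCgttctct
Rps6: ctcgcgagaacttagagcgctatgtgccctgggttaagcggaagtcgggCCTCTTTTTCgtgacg
Rps15a: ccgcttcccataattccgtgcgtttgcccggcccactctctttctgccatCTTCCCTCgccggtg
Rps27: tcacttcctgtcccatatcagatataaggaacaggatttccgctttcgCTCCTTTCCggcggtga
Rps27l: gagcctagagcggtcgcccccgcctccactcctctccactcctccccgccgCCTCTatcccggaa

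A TOP-like start, defined as a C followed by at least 4 further C or T bases that begins within 5 bases of the annotated start, was found for 29 of the 63 members (46.0%) and for 21.2% of the 27025 genes in the promoter table. The letters CCGGAAG, searched on both strands of the 300-base promoters after the sequences had been seen, occurred in 41.3% of the members and in 9.93% of all genes. The letters TATAA, searched on both strands between 45 and 15 bases before the start, occurred in 5 members (7.94%) and in 5.77% of all genes. Start sites are those of the annotation and were not measured in these tumors. Among the members tested below, the 29 with a TOP-like start and the 30 with a promoter but no such start had median log2 fold changes of 0.41 and 0.38 between SePC-La and PC-La, and the 20 without a promoter entry had 0.40.

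The members were among the most abundant transcripts of the tumors. A filter on low values, a 6-sample mean of 1 FPKM or more, was passed by 79 members and 10853 genes in all, and these were tested. Their mean levels ran from 5.14 FPKM for Rps10 to 2563 FPKM for Rplp1, with a median of 409 FPKM against 8.95 FPKM for all genes tested. Members made up 68 of the 345 genes whose mean reached 100 FPKM and 46 of the 100 most abundant genes. The most abundant was Rplp1, an acidic protein of the stalk that recruits elongation factors, at 2087 and 2710.2 FPKM after laser alone, 2317 and 2204 after PC-La and 2984 and 3076 after SePC-La. Next came Rps3a1, a small-subunit protein near the mRNA exit, at 1742 and 2501 FPKM after laser alone, 1865 and 1828 after PC-La and 2503 and 2299 after SePC-La. Rplp0, which anchors the stalk, was at 1785 and 2392 FPKM after laser alone, 1876 and 1842 after PC-La and 2551 and 2287 after SePC-La. In all of these the SePC-La samples lay above the PC-La samples, while Laser 2 lay between the SePC-La samples for Rps3a1 and Rplp0. The other members of the top 10 were Rps15, Rps2, Rpl8, Rpl4, Rpl13, Rpl19 and Rps4x, with means from 1195 to 1949 FPKM.

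**Figure D1:**
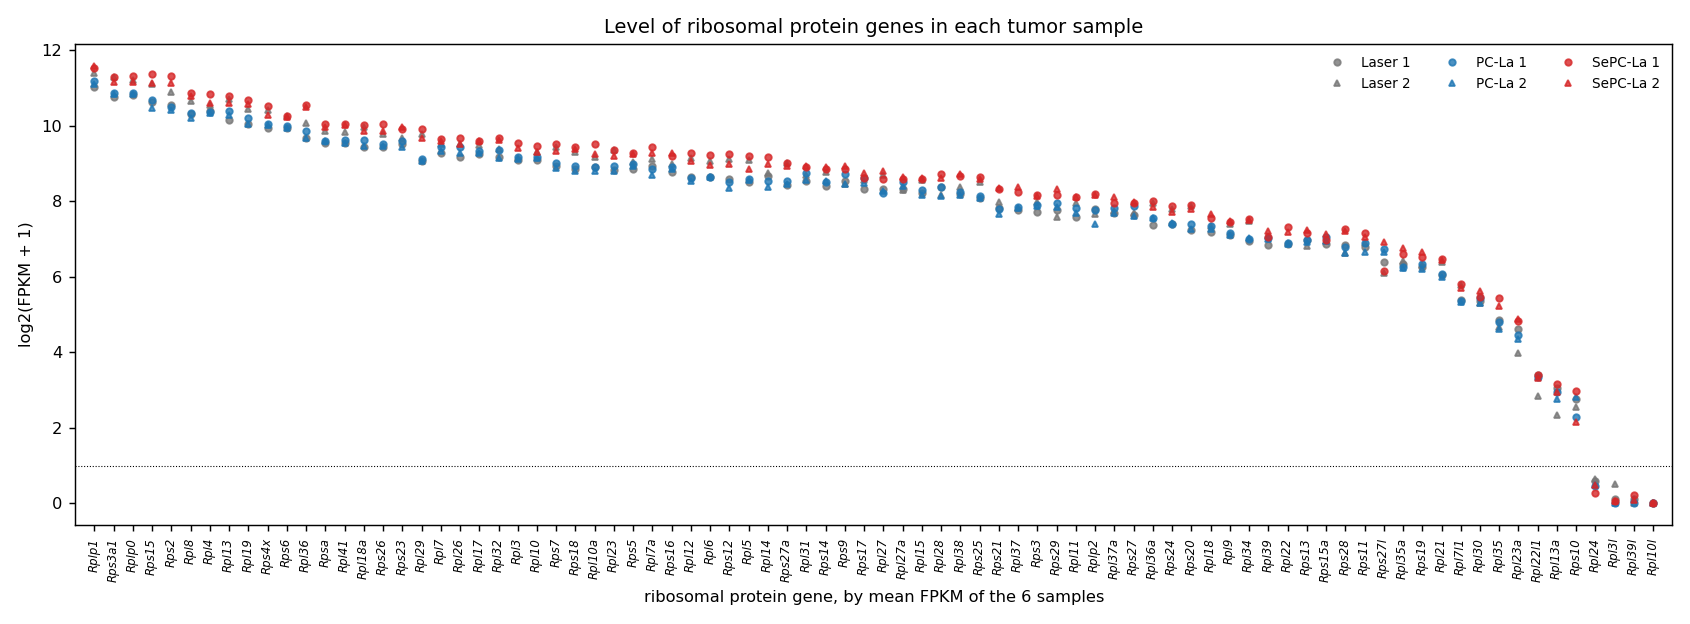
Level of 82 of the 83 ribosomal protein genes in each sample as log2(FPKM + 1), ordered by mean FPKM; colors mark the groups, circles replicate 1 and triangles replicate 2, and the dotted line marks 1 FPKM. Most members lie above 100 FPKM with the SePC-La samples at the top, and 4 members, from Rpl24 on, lie below 1 FPKM in every sample.

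Summed over the members, FPKM was 37081 in Laser 1, 47056 in Laser 2, 39346 in PC-La 1, 36934 in PC-La 2, 53664 in SePC-La 1 and 50126 in SePC-La 2. These sums were 13.3%, 15.9%, 13.8%, 13.2%, 17.7% and 16.1% of each sample's total FPKM, in the same order. Both SePC-La samples were above all others, Laser 2 came next, and Laser 1 lay with the PC-La samples. Single members followed this order in part. A SePC-La sample was the highest of the 6 samples for 78 of the 79 members tested, SePC-La 1 for 50 and SePC-La 2 for 28, whereas the lowest sample was Laser 1 for 33, PC-La 2 for 33 and Laser 2 for 10. Relative to the mean of the PC-La samples, the median member was at −0.04 in Laser 1, 0.25 in Laser 2, 0.44 in SePC-La 1 and 0.36 in SePC-La 2, as log2 ratios.

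**Figure D2:**
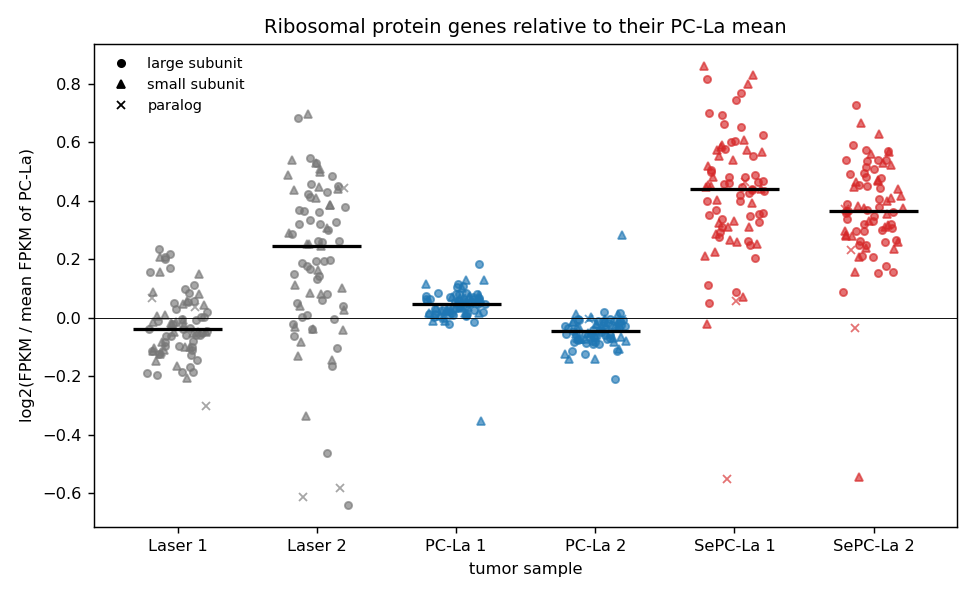
Level of each of the 79 tested members in each sample relative to its mean in PC-La, as log2 of the FPKM ratio; each symbol is a gene (circle, large subunit; triangle, small subunit; cross, paralog) and each black bar is the median of the sample. The SePC-La medians are 0.44 and 0.36, and the Laser samples differ, with medians of −0.04 and 0.25.

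The Laser samples were the least alike for these genes. Laser 2 was above Laser 1 for 65 of the 79 members, with a median difference of 0.26 on the log2 scale, against −0.03 over all genes tested. The median member differed by −0.09 between PC-La 2 and PC-La 1 and by −0.07 between SePC-La 2 and SePC-La 1. The standard deviation within a group was 14.7% of the mean for the median member after laser alone, 4.58% after PC-La and 5.89% after SePC-La. Laser 2 exceeded both SePC-La samples for no member, and lay between both PC-La and both SePC-La samples for 33. The 14 members for which Laser 2 was the lower sample had a median level of 105 FPKM, and the other 65 one of 481 FPKM.

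The comparison of PC-La with Laser asks what the photosensitizer adds to irradiation. No member passed a p of 0.05 in limma, where 5.78% of all genes tested did (3.38% higher and 2.4% lower), and none did in limma voom on the recovered reads. The verbs rose and fell are used below for an unadjusted p under 0.05 in limma, while the adjusted p, over all genes tested, is the one printed. The smallest adjusted p of a member in limma was 0.753. The median log2 fold change was −0.10, against −0.00 over all genes tested, 22 members were above 0, where 49.9% of all genes tested were, and the members ranged from −0.43 to 0.45. The lowest was Rps12, a protein of the small-subunit head, at 384 and 559 FPKM after laser alone, 364 and 325 after PC-La and 613 and 508 after SePC-La, with a log2 fold change of -0.43 ± 0.21 (SE, adjusted p = 0.753). Laser 2 was far above Laser 1, and the PC-La samples lay below both. Rpl29, a large-subunit protein, was at 533 and 877 FPKM after laser alone, 556 and 537 after PC-La and 963 and 823 after SePC-La, and its log2 fold change of -0.32 ± 0.24 (SE, adjusted p = 0.764) came with overlapping groups. Rpl12, a base of the stalk, and Rps15 followed with log2 fold changes of -0.30 and -0.29. At the other end, Rps27l had a log2 fold change of 0.45, Rps29 0.24, Rpl22l1 0.23, Rpl13a 0.16 and Rpl27a 0.15, none of which passed the test.

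Groups did not overlap for 15 members in PC-La against Laser, with 3 higher (Rpl27a, Rps29 and Rps27l) and 12 lower, where 20.4% and 21.6% of all genes tested were so separated. The 95% interval of a member's log2 fold change had a median width of 0.37 to either side. The result rested on which Laser sample was used. Without Laser 1 the members' median fell to −0.25, against 0.01 over all genes tested. Without Laser 2 it was 0.04, against −0.01 over all genes tested. Rps12 was at −0.70 without Laser 1 and −0.16 without Laser 2, and Rpl29 at −0.68 and 0.04.

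The comparison of SePC-La with PC-La asks how the selenium-enriched photosensitizer differs from the plain one, and here the members were higher almost throughout. By the study's measurements, these preparations also differed in chromium, manganese and zinc, so the part of selenium alone cannot be told apart. Of the 79, 45 rose and none fell at p under 0.05, or 57.0%, where 9.91% of all genes tested were higher and 14.4% lower. The median log2 fold change was 0.40, a 1.32-fold difference, against −0.07 over all genes tested. The sign was positive for 77 members, where 41.5% of all genes tested were positive. The SePC-La samples did not overlap the PC-La samples for 74 members, all higher, where 26% of all genes tested were higher without overlap. In bulk tumor tissue, a larger share of cells rich in these mRNAs and more of them per cell cannot be told apart. No adjusted p of a member was under 0.05 in limma, where the smallest was 0.126, or in voom, which gave 44 members at an unadjusted p under 0.05. With only the 4 samples of these groups in the fit, 62 members rose at p under 0.05, 11 of them with an adjusted p under 0.05 in limma. The share of all genes that passed in that fit is not given here, so these counts have no background beside them. No member met the study's criterion, an unadjusted p under 0.05 with an absolute log2 fold change over 1, in any comparison, where 1.29% of all genes tested met it for PC-La against Laser, 0.682% for SePC-La against Laser and 2.98% for SePC-La against PC-La.

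The largest difference was that of Rps2, which lines the path of the mRNA into the small subunit and lies in chr17:24718116-24721929 (GRCm38). It was at 1488 and 1899.9 FPKM after laser alone, 1433 and 1371 after PC-La and 2546 and 2225 after SePC-La, and the lower SePC-La sample was above every other sample. Its log2 fold change was 0.76 ± 0.17 (SE, adjusted p = 0.126). Rpl36, a large-subunit protein, was at 817 and 1076 FPKM after laser alone, 925 and 824 after PC-La and 1488 and 1448 after SePC-La, with both SePC-La samples above every other sample and close to each other. The log2 fold change of Rpl36 was 0.75 ± 0.17 (SE, adjusted p = 0.126). For Rpl29 (values above) it was 0.70 ± 0.24 (SE, adjusted p = 0.165), with SePC-La 2 below Laser 2. Rps12 reached 0.70 ± 0.21 (SE, adjusted p = 0.144), and both PC-La samples were below all others. Rps15, a small-subunit protein needed for export of the pre-ribosome, was at 1571 and 2194 FPKM after laser alone, 1629.9 and 1409.7 after PC-La and 2642 and 2249 after SePC-La. It differed by 0.68 ± 0.20 (SE, adjusted p = 0.143), and SePC-La 1 was clearly the highest sample.

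Among the other abundant members, Rpl8, which borders the peptidyl transferase centre, was at 1274 and 1600.2 FPKM after laser alone, 1287 and 1175 after PC-La and 1866 and 1759 after SePC-La, and rose by 0.56 ± 0.16 (SE, adjusted p = 0.138) with both SePC-La samples above all others. Rpl19, a large-subunit protein that forms a bridge between the subunits, was at 1049 and 1404 FPKM after laser alone, 1185 and 1065 after PC-La and 1649.9 and 1540.5 after SePC-La and rose by 0.50 ± 0.18 (SE, adjusted p = 0.168). Rpl4, whose loop lines the exit tunnel, was at 1339 and 1502 FPKM after laser alone, 1327 and 1295 after PC-La and 1830.5 and 1556 after SePC-La and rose by 0.36 ± 0.15 (SE, adjusted p = 0.198). In Rpl8, Rpl19 and Rpl4 alike, the PC-La samples and Laser 1 lay close together and Laser 2 lay above them. Rpl13, a large-subunit protein, was at 1138 and 1682 FPKM after laser alone, 1354 and 1252 after PC-La and 1777 and 1549 after SePC-La, and Laser 2 lay between its SePC-La samples, with a log2 fold change over PC-La of 0.35 ± 0.21 (SE, adjusted p = 0.330). Rps4x, the X-linked small-subunit protein, was at 979 and 1377 FPKM after laser alone, 1064 and 1042 after PC-La and 1469.8 and 1240.5 after SePC-La, and its 0.36 ± 0.20 (SE, adjusted p = 0.293) likewise came with Laser 2 between the SePC-La samples. Rpsa was at 751 and 925 FPKM after laser alone, 779 and 774 after PC-La and 1058 and 993 after SePC-La, with both SePC-La samples the highest, and rose by 0.40 ± 0.15 (SE, adjusted p = 0.181).

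Rps12, Rpl29, Rpl12 and Rps15, which were low in PC-La against Laser, were among those that rose in SePC-La against PC-La, comparisons that share the PC-La samples. Rpl12 was at 398 and 561 FPKM after laser alone, 395 and 373 after PC-La and 620.4 and 536 after SePC-La, with both PC-La samples below all others, and rose by 0.58 ± 0.19 (SE, adjusted p = 0.155) over PC-La. For Rpl27a, a large-subunit protein, the order was another one, at 319 and 314 FPKM after laser alone, 366 and 339.9 after PC-La and 382 and 399 after SePC-La, with both Laser samples the lowest, both SePC-La samples the highest and 0.15 ± 0.12 (SE, adjusted p = 0.468) over PC-La. Rpl35 was at 28.1 and 24.6 FPKM after laser alone, 26.8 and 23.7 after PC-La and 42.3 and 36.7 after SePC-La, both SePC-La samples stood clear of the rest, and the difference from PC-La was 0.63 ± 0.14 (SE, adjusted p = 0.126). Rpl23a, which docks nascent-chain factors, was at 23.6 and 14.7 FPKM after laser alone, 21.1 and 19.5 after PC-La and 27.4 and 28.6 after SePC-La, with Laser 2 the lowest and 0.45 ± 0.21 (SE, adjusted p = 0.247) over PC-La.

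The small differences were spread over both subunits and the paralogs. Rps27l, at 83.3 and 67.1 FPKM after laser alone, 106 and 99.0 after PC-La and 70.0 and 120.4 after SePC-La, had the lowest log2 fold change, -0.16 ± 0.26 (SE, adjusted p = 0.723), with the SePC-La samples far apart on either side of the PC-La samples. Rps10, which borders the mRNA entry, was at 5.75 and 4.88 FPKM after laser alone, 3.90 and 6.07 after PC-La and 6.83 and 3.42 after SePC-La with -0.00 ± 0.31 (SE, adjusted p = 0.999), and its groups overlapped. Rps15a, at 116 and 123 FPKM after laser alone, 131 and 122 after PC-La and 124 and 141 after SePC-La, had 0.07 ± 0.13 (SE, adjusted p = 0.762) with overlapping groups. Rpl39, a tiny protein of the exit tunnel, was at 113 and 136 FPKM after laser alone, 129 and 128 after PC-La and 133 and 148 after SePC-La, and its 0.13 ± 0.14 (SE, adjusted p = 0.581) came with SePC-La above PC-La but Laser 2 above SePC-La 1. The 5 members whose groups overlapped were Rps15a, Rps27l, Rpl22l1, Rpl13a and Rps10.

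By subunit, 26 of 45 large-subunit members rose in SePC-La against PC-La with a median of 0.41, and 18 of 31 small-subunit members rose with a median of 0.38. Of the 3 paralogs past the filter, 1 rose. The stalk proteins Rplp1 and Rplp2 and the laminin receptor protein Rpsa, a small-subunit protein, rose, and Rplp0 did not pass at a log2 fold change of 0.38 ± 0.18 (SE, adjusted p = 0.243). Rplp2 was at 222 and 201 FPKM after laser alone, 218 and 166 after PC-La and 293 and 286 after SePC-La, with SePC-La above all other samples and a log2 fold change of 0.60 ± 0.16 (SE, adjusted p = 0.134). The counts depended on single samples in every group compared. Without PC-La 1, 13 members rose, where 3.59% of all genes tested did, and without PC-La 2, 5 rose, where 4.42% did. Without SePC-La 1, 13 rose, where 5.23% of all genes did, and without SePC-La 2, 21 rose and 1 fell, where 8.62% of all genes rose. The median stayed between 0.36 and 0.44 in these fits. Scaling moved the count as well. With quantile normalization 10 members rose, where 11.5% of all genes tested did, so that the share of the members was near that of all genes, and the median was 0.17. With FPKM rescaled to an equal sum per sample 23 rose, where 5.65% of all genes did, and with quantile normalization Rpl4 turned to −0.05.

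**Figure D3:**
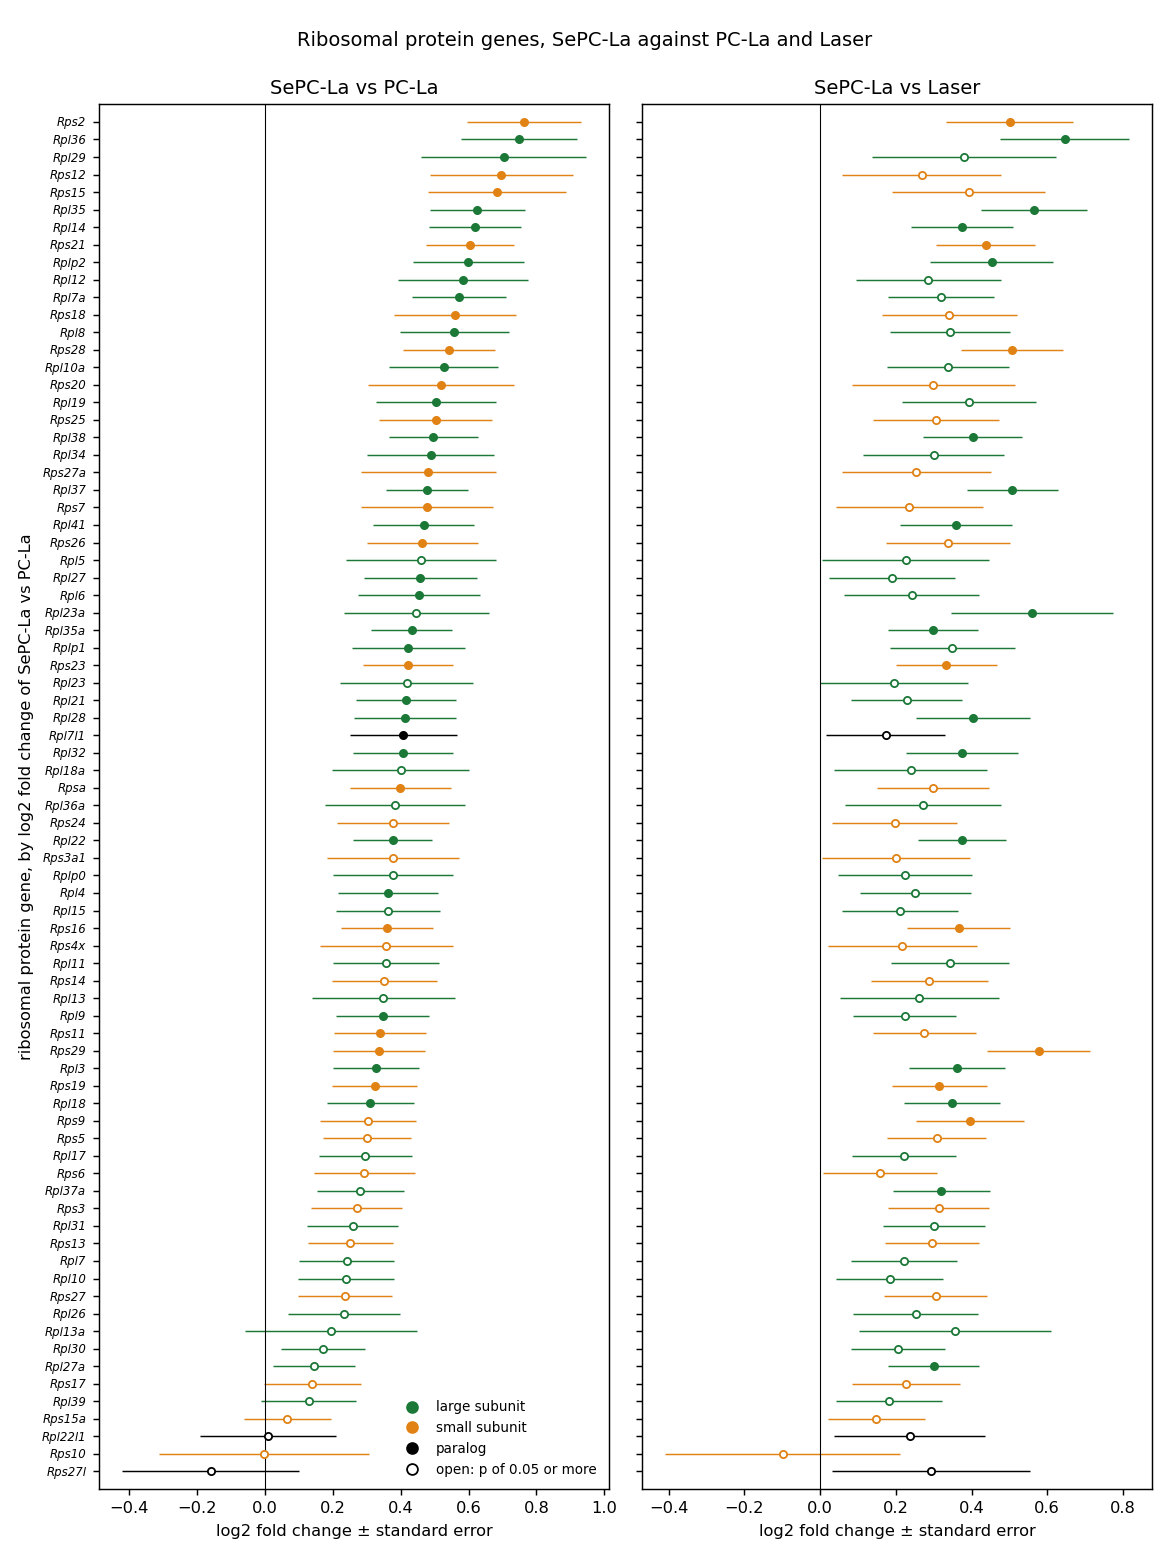
Log2 fold change on the log2(FPKM + 1) scale of 78 of the 79 tested members in SePC-La against PC-La (left) and against Laser (right), with the standard error from limma as a bar; colors mark the subunit, and filled points have an unadjusted p under 0.05. In the left panel 44 points are filled, all above 0, and in the right panel 24, all above 0.

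The comparison of SePC-La with Laser, which shares the SePC-La samples with the one above, gave 24 members that rose and none that fell at p under 0.05. That was 30.4% of the members, where 4.9% of all genes tested were higher and 7.24% lower. The median log2 fold change was 0.30, against −0.06 over all genes tested, and 78 of the 79 were above 0, where 40.2% of all genes tested were. Rps10 was the exception at -0.10. Groups did not overlap for 53 members, all higher, where 15% of all genes tested were higher without overlap. The smallest adjusted p in limma was 0.376, and voom gave the same number of members, 24, at an unadjusted p under 0.05 and none at an adjusted one.

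Rpl36 led with a log2 fold change of 0.65 ± 0.17 (SE, adjusted p = 0.376). Rps29, a small zinc-binding protein of the small subunit, was at 216 and 189.7 FPKM after laser alone, 248 and 231 after PC-La and 286 and 319.5 after SePC-La. Its SePC-La samples were the highest and its Laser 2 sample the lowest, and its log2 fold change was 0.58 ± 0.14 (SE, adjusted p = 0.376). Rpl37, a zinc-binding protein of the large subunit, was at 217 and 227 FPKM after laser alone, 228 and 225 after PC-La and 303 and 329 after SePC-La, and it rose by 0.51 ± 0.12 (SE, adjusted p = 0.376) with the Laser and PC-La samples nearly level. Rpl35 and Rpl23a, neighbours at the mouth of the exit tunnel, rose by 0.57 ± 0.14 (SE, adjusted p = 0.376) and 0.56 ± 0.21 (SE, adjusted p = 0.391). Besides Rps10, the smallest log2 fold changes were those of Rps15a at 0.15, Rps6 at 0.16, Rpl7l1 at 0.17 and Rpl39 at 0.18. The Laser samples set the size of this result. Without Laser 2, 60 members rose, where 7.24% of all genes tested did, and the median was 0.43. Without Laser 1, 16 rose, where 7.41% of all genes did, and the median was 0.16. Without Laser 1 and without Laser 2 in turn, Rpl36 was at 0.45 and 0.84, Rps29 at 0.67 and 0.48, Rpl37 at 0.48 and 0.54 and Rpl35 at 0.66 and 0.47, and these passed either way. Rpl23a was at 0.88 without Laser 1 but did not pass without Laser 2, at 0.24. Leaving out PC-La 1 or PC-La 2, which changes only the estimate of the spread, left 7, where 2.83% and 2.82% of all genes rose, and leaving out SePC-La 1 or SePC-La 2 left 11 and 9, where 3.59% and 3.81% did. Quantile normalization gave 6 members, where 5.02% of all genes rose, with a median of 0.08, which left the members' share near that of all genes. FPKM rescaled to an equal sum gave 9, where 2.51% of all genes rose.

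Other abundant genes also had medians above 0 in SePC-La, smaller than those of the members, but moved in both directions. Apart from the members, 277 genes had a mean that reached 100 FPKM. Of these, 18.8% rose and 6 genes fell in SePC-La against Laser, where their median log2 fold change was 0.16 and 72.2% were above 0. In SePC-La against PC-La 26.4% rose and 26 genes fell, with a median of 0.18 and 62.5% above 0. In PC-La against Laser the median of these genes was −0.01. Without Laser 1 and without Laser 2, 20.6% and 26.7% of them rose in SePC-La against Laser, with medians of 0.14 and 0.19, and the medians in PC-La against Laser were −0.02 and 0.02. With all samples in the fit, the members' medians of 0.30, 0.40 and −0.10 in the same comparisons lay farther from 0. In SePC-La against Laser without Laser 1, the members' median was 0.16, close to the 0.14 of these other genes. Without Laser 2 it was 0.43, against their 0.19. The part of abundance in the members' medians was not tested.

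**Figure D4:**
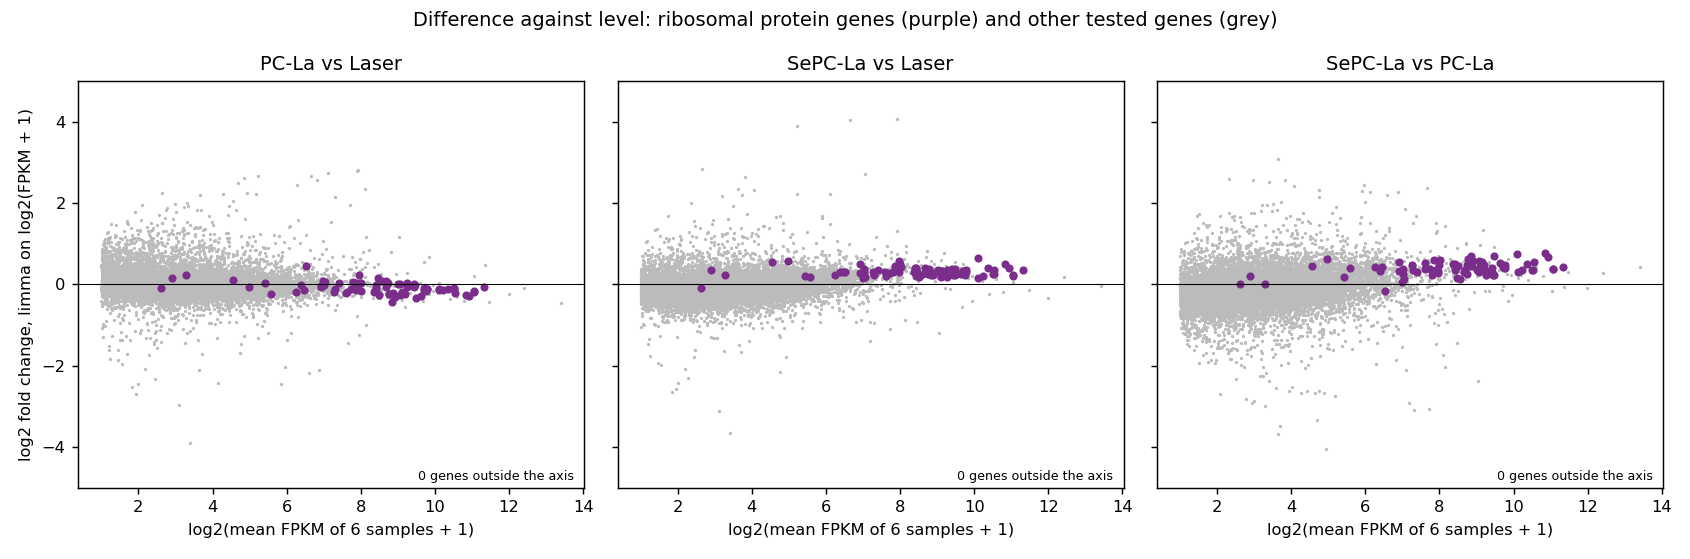
Log2 fold change against log2(mean FPKM + 1) for the 10853 genes tested, in the comparisons named above each panel; purple points are the 79 ribosomal protein genes and grey points all other genes. The purple points sit mostly below 0 in PC-La against Laser (median −0.10) and above 0 in both SePC-La comparisons (medians 0.30 and 0.40).

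Members with known roles outside the ribosome were followed one by one. Rpl5 and Rpl11, which carry 5S rRNA and can bind Mdm2, were at 364 and 547 FPKM after laser alone, 383 and 376 after PC-La and 584 and 466 after SePC-La and at 193 and 247 FPKM after laser alone, 226 and 207 after PC-La and 276 and 278 after SePC-La, respectively. SePC-La exceeded PC-La in both, at 0.46 ± 0.22 (SE, adjusted p = 0.251) and 0.36 ± 0.16 (SE, adjusted p = 0.220), without passing the test. Rps6, the substrate of the S6 kinases, was at 982 and 1217 FPKM after laser alone, 1012 and 978 after PC-La and 1234 and 1207 after SePC-La, with Laser 2 level with SePC-La and a log2 fold change over PC-La of 0.29 ± 0.15 (SE, adjusted p = 0.268). Rps3, which also acts in DNA repair, was at 210.3 and 249 FPKM after laser alone, 239 and 232 after PC-La and 287 and 282 after SePC-La. Its SePC-La samples were the highest, with 0.27 ± 0.13 (SE, adjusted p = 0.257) against PC-La. Rps19, the gene most often mutated in Diamond-Blackfan anemia, was at 74.9 and 78.4 FPKM after laser alone, 80.0 and 72.5 after PC-La and 90.8 and 101 after SePC-La. It rose in SePC-La against both PC-La, by 0.32 ± 0.13 (SE, adjusted p = 0.189), and Laser, by 0.32 ± 0.13 (SE, adjusted p = 0.405). Against Laser it did not pass without Laser 1, at 0.28, or without Laser 2, at 0.35.

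Paralogs were set beside the protein they resemble. Rps27, a zinc-binding small-subunit protein, was at 197 and 207 FPKM after laser alone, 232 and 193 after PC-La and 249 and 251 after SePC-La, and Rps27l, which is a known p53 target, stood at 42.3% and 32.4% of it after laser alone, 45.8% and 51.4% after PC-La and 28.2% and 48.1% after SePC-La. The SePC-La samples thus span the widest range. Rpl22, a large-subunit protein, was at 117 and 118 FPKM after laser alone, 118 and 116 after PC-La and 159 and 146 after SePC-La, with Laser and PC-La level and both SePC-La samples higher, and it rose by 0.38 ± 0.12 (SE, adjusted p = 0.147) over PC-La. Its paralog Rpl22l1 was at 9.60 and 6.12 FPKM after laser alone, 9.20 and 9.14 after PC-La and 9.53 and 8.96 after SePC-La, with Laser 2 alone lower. Rpl7l1, a nucleolar relative of Rpl7, was at 40.7 and 53.9 FPKM after laser alone, 39.9 and 39.5 after PC-La and 54.7 and 51.3 after SePC-La and rose over PC-La by 0.41 ± 0.16 (SE, adjusted p = 0.189), and Rpl7 itself differed by 0.24 ± 0.14 (SE, adjusted p = 0.317). Rpl3, which helps to shape the peptidyl transferase centre, was at 543 and 566 FPKM after laser alone, 579 and 557 after PC-La and 748 and 679.7 after SePC-La and rose by 0.33 ± 0.13 (SE, adjusted p = 0.188). Rpl10, which completes the large subunit, differed by 0.24 ± 0.14 (SE, adjusted p = 0.324) from PC-La.

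The tissue-restricted paralogs were at or near 0 reads. Rpl3l, the striated muscle form of Rpl3, had 2 reads in Laser 1 and 12 in Laser 2, 0 in either PC-La sample and 1 in either SePC-La sample, and the sample with 12 reads was Laser 2, which also had the highest skeletal muscle markers. Rpl39l, a form known from testis, had at most 2 reads in a sample. Rpl10l, also known from testis, had no read in any sample, which allows at most 3 reads per sample for counting error. The remaining member below the filter, Rpl24, a large-subunit protein that bridges the subunits, had only 3 to 10 reads per sample.

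Several low values stood beside annotation overlaps. In GENCODE M21, 47.0% of the exon bases of Rpl24 are shared with another gene on the same strand, as are 35.4% for Rpl13a, which also serves in translational silencing after interferon gamma, and 20.6% for Rps10. Rpl13a was at only 7.37 and 4.02 FPKM after laser alone, 6.75 and 5.78 after PC-La and 7.99 and 6.67 after SePC-La. Rpl35 and Rpl23a share 66.2% and 62.3% of their exon bases with other genes, mostly on the opposite strand, and stood at 30.4 and 22.5 FPKM on average. In all, 38 members share exon bases with another gene, 27 of them on the same strand. How such reads were counted, and whether strand was used, is not given in the sources used here, and its part in these levels was not tested. The same holds for the reads of near-identical pseudogenes, of which 8 have rows of their own, 4 past the filter, and of those Rps18-ps5 and Rpl9-ps6 rose in SePC-La over PC-La.

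Ribosomal proteins whose symbols fall outside the rule were looked at beside the members. Fau, the precursor of Rps30, was at 773 and 976 FPKM after laser alone, 761 and 715 after PC-La and 1220.4 and 1069 after SePC-La, and rose in SePC-La over PC-La by 0.63 ± 0.16 (SE, adjusted p = 0.130). Rack1, a scaffold bound to the small subunit, was at 309 and 409.6 FPKM after laser alone, 329 and 315 after PC-La and 492 and 395 after SePC-La and rose by 0.45 ± 0.19 (SE, adjusted p = 0.203). In both genes SePC-La 1 was the highest sample, and the PC-La samples lay close to Laser 1.

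Factors that make the ribosome were also higher in SePC-La than in PC-La. Of 60 biogenesis factors tested, 35 rose and none fell in SePC-La against PC-La, with a median of 0.46. In that comparison 9.91% of all genes tested rose and 14.4% fell. Mrto4, a large-subunit assembly factor, was at 20.4 and 19.2 FPKM after laser alone, 16.8 and 16.3 after PC-La and 32.8 and 26.8 after SePC-La and rose by 0.80 ± 0.14 (SE, adjusted p = 0.123), and Fbl, the methyltransferase of box C/D particles, rose by 0.73 ± 0.13 (SE, adjusted p = 0.123). Against Laser, 8 factors rose in SePC-La with a median of 0.21, where 4.9% of all genes tested rose. The median was 0.01 without Laser 1 and 0.40 without Laser 2. In PC-La against Laser the median was −0.26, and Gnl3, a nucleolar GTPase, fell, at a log2 fold change of -0.58 ± 0.22 (SE, adjusted p = 0.753). Without Laser 1 the median was −0.42 and Gnl3 was at −0.82, and without Laser 2 the median was −0.10 and Gnl3 was at −0.33. The translation factors known to have TOP mRNAs gave 6 of 22 that rose over PC-La with a median of 0.27, among them Npm1, a nucleolar chaperone, at 0.56 ± 0.14 (SE, adjusted p = 0.126). The subunits and factors of RNA polymerase I gave 6 of 20 with a median of 0.20.

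Regulators of ribosome synthesis were looked at next. Of 20 genes of mTORC1 and TOP regulation, 2 rose and 1 fell in SePC-La against PC-La, with a median of −0.10, shares near or below those of all genes tested. Myc, the transcription factor that drives ribosome production, was at 185 and 256 FPKM after laser alone, 122 and 133 after PC-La and 448 and 295 after SePC-La. Both SePC-La samples were the highest and both PC-La samples the lowest, with Laser between. Myc rose in SePC-La by 1.51 ± 0.24 (SE, adjusted p = 0.120) over PC-La and by 0.74 ± 0.24 (SE, adjusted p = 0.382) over Laser, and fell in PC-La against Laser at a log2 fold change of -0.77 ± 0.24 (SE, adjusted p = 0.753). Without Laser 1, Myc was at 0.51 in SePC-La over Laser, which did not pass, and at −1.002 in PC-La against Laser, and without Laser 2 it was at 0.97 and at −0.53, of which the latter did not pass. Eif4ebp1, a translational repressor under mTORC1, rose by 0.80 ± 0.17 (SE, adjusted p = 0.126) over PC-La, whereas the S6 kinase gene Rps6kb1 fell, at a log2 fold change of -0.41 ± 0.17 (SE, adjusted p = 0.196). In the p53 list, 2 of 11 genes rose and 3 fell in SePC-La against PC-La, where 9.91% of all genes tested rose and 14.4% fell. Ccng1, a p53 target, was at 43.1 and 28.6 FPKM after laser alone, 86.7 and 79.4 after PC-La and 18.7 and 39.2 after SePC-La, highest in both PC-La samples, and fell in SePC-La at a log2 fold change of -1.58 ± 0.36 (SE, adjusted p = 0.126) against PC-La.

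Ribosomal proteins of the mitochondria, which are a separate set of nuclear genes, had smaller medians in both SePC-La comparisons with all samples in the fit. Of 77 tested, 15 rose in SePC-La over PC-La with a median of 0.19, where 9.91% of all genes tested rose. Over Laser, 14 rose with a median of 0.16, where 4.9% of all genes tested rose. Without Laser 1 the median over Laser was 0.16, level with the 0.16 of the cytosolic members. Without Laser 2 it was 0.20, against 0.43 for the cytosolic members. Proteasome subunits, another large complex, gave 8 of 37 that rose over PC-La, with a median of 0.19. Over Laser they gave 6 of 37 with a median of 0.22, which was 0.14 without Laser 1 and 0.30 without Laser 2. The mitochondrially encoded mRNAs gave none of 12 in either comparison at p under 0.05, although without Laser 1 4 of them fell in SePC-La against Laser, and without Laser 2 1 rose. The lists of nuclear long noncoding RNAs and of small nucleolar RNA host genes had no gene past the filter.

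**Figure D5:**
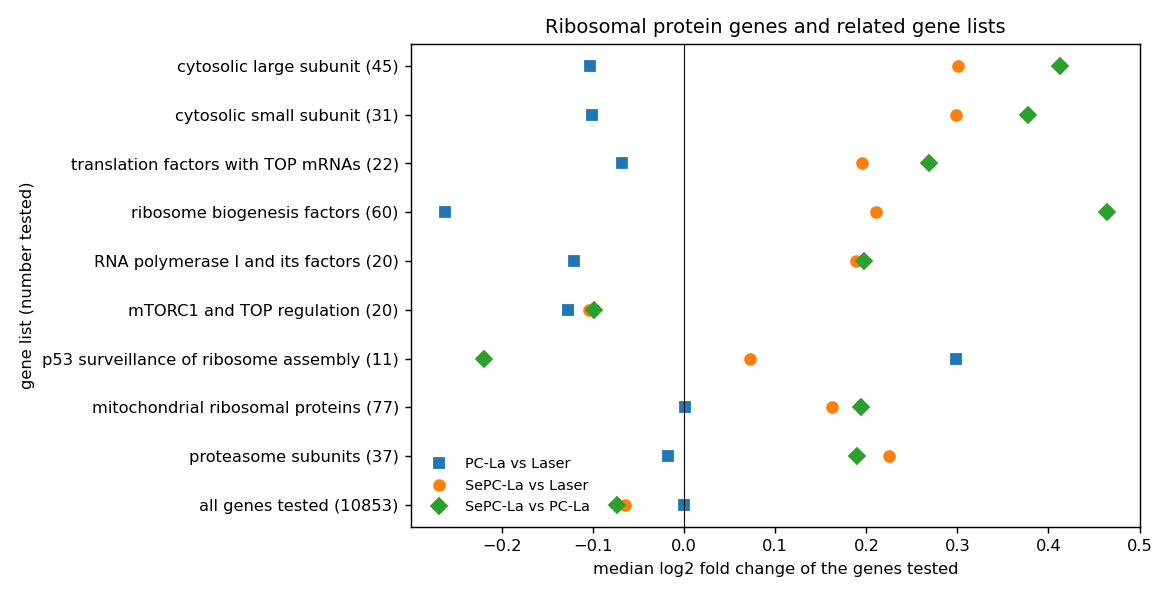
Median log2 fold change of the tested genes of each list in the 3 comparisons, with the number tested in parentheses; each symbol is a list median and no error is drawn. Cytosolic ribosomal proteins (medians 0.41 and 0.38) and biogenesis factors (0.46) lie to the right in SePC-La against PC-La, and all genes tested lie at −0.07.

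Cell type markers also differed between the samples. Macrophage markers summed to 614 and 656 FPKM after laser alone, 867 and 922 after PC-La and 362 and 679 after SePC-La. Of these, 4 of 6 fell in SePC-La against PC-La and 0 rose, where 14.4% of all genes tested fell and 9.91% rose. In SePC-La against Laser, 4.9% of all genes tested rose and 7.24% fell. The 3 samples with the highest summed FPKM of the members, SePC-La 1, SePC-La 2 and Laser 2, had the lowest sums of fibroblast markers, 44.5, 235 and 68.9 FPKM, and 0 of 5 fibroblast markers passed in SePC-La against PC-La. Neutrophil markers summed to 148 and 31.9 FPKM after laser alone, 144 and 76.8 after PC-La and 330.3 and 434 after SePC-La, and 2 of 5 rose over PC-La and 3 of 5 over Laser (4 without Laser 1, 2 without Laser 2). Erythroid markers summed to 127 and 13.6 FPKM after laser alone, 263 and 361 after PC-La and 613 and 932 after SePC-La, and 1 of 5 rose over PC-La and 5 of 5 over Laser, with a median log2 fold change of 3.90 over Laser. Of the skeletal muscle markers, 5 of 5 fell in SePC-La against Laser, with a median of −2.58. The same 5 fell in PC-La against Laser, with a median of −2.69, where 2.4% of all genes tested fell. Between SePC-La and PC-La 0 of 5 passed, with a median of 0.11. Without Laser 1 and without Laser 2, the muscle medians in SePC-La against Laser were −3.76 and −1.40. In PC-La against Laser they were −3.87 and −1.46. The erythroid medians in SePC-La against Laser were 5.15 and 2.39 in the same fits. The lists of T cells, endothelium and adipocytes never exceeded 26.8 FPKM in a sample, and those of B cells and keratinocytes never exceeded 1.33 FPKM. The part of these cell types in the level of the members was not tested.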

How the data were processed

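Total RNA of 6 tumor samples was sequenced on an Illumina instrument. The authors deposited 1 table that names no unit; its values were inferred to be FPKM and used as deposited. The submitters' processing notes name HISAT2 2.0.5, HTSeq 0.9.1, DESeq 1.30.0 and mm9; the annotation and counting settings are not given in the sources used here. Multiplied by exon lengths of GENCODE M21 (GRCm38), whose coordinates are given, the values of 97.77% of expressed genes came out as whole reads in every sample (tolerance 0.02 reads).

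The limma package (3.58.1, R 4.3.3) was fitted to log2(FPKM + 1), with trend and robust moderation, for genes whose mean reached 1 FPKM. This scale understates the changes of low genes. All 6 samples shared 1 fit, with Benjamini-Hochberg adjustment over all genes tested. The fit was tested on simulated data. Alternatives were other pseudocounts, filters, scalings and variance models, a replicate block, limma voom on the recovered reads and each sample left out.

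Members and lists were chosen with earlier results of these data known. Members were named for the 10 highest means, the 5 highest and 5 lowest log2 fold changes of each comparison, the stalk, the paralogs, known roles or a level below the filter; from other lists, at most the 3 genes with the smallest p under 0.05 were to be named. Rpl14, Rpl38 and Rps18, shown for their promoters, and some examples from the lists were picked after their values were seen. The single values of 1 member are not reported here; it stays in the fits and counts, and is left out of the plots that name genes.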

Additional observations from a re-analysis of the deposited data

How the results depend on the processing

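Leaving a sample out leaves its group with 1 sample, which is assumed to vary like the others. Members at p under 0.05 then numbered 0 to 31 in PC-La against Laser (31 without Laser 1, 28 of them lower), 7 to 60 in SePC-La against Laser and 5 to 62 in SePC-La against PC-La. The medians ran from −0.245 to 0.0367, from 0.164 to 0.434 and from 0.363 to 0.440. In PC-La against Laser without Laser 1, 24.9% of all genes tested passed, 14.4% higher and 10.4% lower. Of the members, 3.8% were higher and 35.4% lower in that fit. Passing there was thus not limited to the members. Quantile normalization gave 1, 6 and 10 members with medians of 0.0753 against Laser and 0.168 against PC-La for SePC-La, and reversed Rpl4 in SePC-La against PC-La to −0.0486. Rescaling FPKM to an equal sum per sample gave 9 and 23 members for SePC-La, with a median of 0.279 against PC-La, and shifted the median of all genes tested to −0.16 and −0.20. With only the 4 samples compared, 1 and 7 members passed in PC-La and SePC-La against Laser, where 6.09% and 6.45% of all genes tested did. The cause of these changes was not tested.

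Same-numbered samples did not deviate together: their deviations from the group means correlated at 0.0862 for Laser and PC-La, −0.428 for Laser and SePC-La and −0.177 for PC-La and SePC-La. With the replicate number as a block, 0, 11 and 27 members passed in PC-La against Laser, SePC-La against Laser and SePC-La against PC-La. The 11 and 27 were all higher, where 3.61% and 7.87% of all genes tested were higher at p under 0.05. A block with crossed numbers, added after the data were seen, gave 0, 18 and 42, for which no share of all genes is given here.

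With 13 settings other than leaving out a sample, 66 of 79 members kept their direction in every setting in SePC-La against PC-La, as did 60 in SePC-La against Laser and 63 in PC-La against Laser; over the 6 fits that omit a sample, 75, 62 and 23 did. Of the 45 members called in SePC-La against PC-La, 10 were called in all 13 settings and 5 in all 6 of those fits, and of the 24 called in SePC-La against Laser, 5 and 5 were. With 2 samples a group, the median standard error of a member was 0.15 on the log2 scale, and its 95% interval reached a median of 0.37 to either side. Differences smaller than 0.37 could thus not be resolved for a typical member. Members with few reads, such as Rpl24, could not be tested.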
